A study of Mus musculus with 12 samples.

Results

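The genes described here are 39 interferon-stimulated genes, a set that answers type I interferon, taken from a list of names. The list was drawn up with earlier results of these data known. Counts set beside those of all tested genes therefore describe it and are no independent test. All 39 were among the 35434 genes of the count table, and all 39 passed the filter on low counts that left 15269 genes for testing. They were measured by bulk RNA sequencing in 12 tumours that the mouse mammary carcinoma line 4T1, which lacks hormone receptors, had formed under the skin. Each tumour came from its own female mouse of the BALB/c strain, an immunocompetent host. The study asked, as far as its labels state, how low oxygen pressure and IOX2 act on the tumour. IOX2 is an inhibitor of PHD2, an enzyme that uses oxygen to mark hypoxia-inducible factors for breakdown.

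The 4 groups held 3 mice each. HI mice lived in a hypobaric chamber set to 3500 m and received IOX2, and HC mice lived in the same simulated altitude and received vehicle. MI mice lived at the ambient altitude of about 1500 m and received IOX2, and MC mice lived there and received vehicle. All were 6 to 8 weeks old, were acclimatized for 3 days, and received 1000000 cells of 4T1 under the skin of the back. IOX2 was injected into the abdomen at 10 mg/kg each day for 10 days from day 9 after inoculation, and tumours were taken on study day 22. The study used 24 mice, of which 12 gave a library. The labels place the HI and HC mice alone in a chamber. Altitude and chamber housing therefore cannot be told apart, and altitude below stands for both.

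Type I interferons, the alpha and beta family, are released by cells that sense foreign or misplaced nucleic acid, and they bind a receptor made of Ifnar1 and Ifnar2. The receptor's kinases Jak1 and Tyk2 activate transcription factors, Stat2 among them, and a complex that holds Stat2 and Irf9 binds the interferon-stimulated response element in promoters. The genes switched on in this way encode nucleic acid sensors, blockers of viral RNA and protein synthesis, and regulators that feed back on the pathway; in tumours the response comes from cancer cells and from immune cells alike.

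The response element is visible in the promoters of several of these genes, and the stretches with a match upstream of the start are printed for 7 genes of 4 roles. The core of the element was searched on both strands as GAAA, any 2 bases and GAAA again, in promoters of 300 bases (250 before the start and 50 after it) from RefSeq for the mouse build GRCm38.p6. That build is older than the GRCm39 build of the counts, and it is the genome of another strain than BALB/c, so a base in these tumours may differ. Each line runs from 5′ to 3′ on the gene's own strand, ends before the transcription start, and has the matches in capitals, which read TTTC, 2 bases and TTTC where the match is on the other strand.
Isg15 (chr4:156200850-156200921, minus strand): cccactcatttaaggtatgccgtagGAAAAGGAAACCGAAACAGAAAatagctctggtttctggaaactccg
Ifit1 (chr19:34640760-34640838, plus strand): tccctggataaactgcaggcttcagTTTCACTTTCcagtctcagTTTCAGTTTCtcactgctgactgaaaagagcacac
Ifit3 (chr19:34583348-34583441, plus strand): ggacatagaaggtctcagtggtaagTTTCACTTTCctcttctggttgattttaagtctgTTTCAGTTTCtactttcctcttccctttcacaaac
Ifit3b (chr19:34607744-34607837, plus strand): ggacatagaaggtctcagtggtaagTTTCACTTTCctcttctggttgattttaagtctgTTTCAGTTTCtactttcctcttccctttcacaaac
Oas1a (chr5:120907526-120907570, minus strand): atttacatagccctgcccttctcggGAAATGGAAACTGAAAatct
Bst2 (chr8:71537562-71537627, minus strand): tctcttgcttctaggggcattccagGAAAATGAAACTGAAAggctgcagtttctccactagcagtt
Rsad2 (chr12:26456538-26456597, minus strand): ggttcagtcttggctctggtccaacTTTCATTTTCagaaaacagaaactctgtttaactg
Overlapping matches were merged in capitals: Isg15 had 3 and Oas1a and Bst2 had 2 each. Ifit1, Ifit3 and Ifit3b had 2 separate matches each, and Rsad2 had 1.

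Of the 39 genes, 30 had a promoter in the table, and 13 of the 30 (43.3%) held a match to the core of the response element, against 3.99% of 27025 genes with a promoter. In 10 of the 13 a match began upstream of the start. In Rigi, Ifih1 and Eif2ak2 it lay past the start. The motif TTCNNNGAA, the core of the gamma-activated site that answers interferon gamma, was held by 5 of the 30 (16.7%), against 9.55% of those genes. The Ifit3 and Ifit3b stretches were the same over all 94 bases. Ifit3, Ifit3b, Oas1a and Phf11d have close copies, and how reads were shared between copies was not tested, so their counts are uncertain. A match is a description of the letters and says nothing of binding in these tumours.

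All 39 genes had counts in every tumour. The lowest raw count was 215 (Hsh2d) and the highest 17092 (Bst2). Library totals ran from 31661685 (HC1) to 40019343 counts (MI2), with TMM factors of 0.925 to 1.03, and their number sets the counting error, which replicate libraries exceeded. Epithelial markers of the 4T1 tumour cells (8 genes, Epcam and Krt8 among them) were all detected, with a summed level of 4293 to 4773 CPM in HI, 4588 to 5051 CPM in HC, 3921 to 4298 CPM in MI and 4363 to 4650 CPM in MC. Levels below are CPM, counts scaled to library size with TMM factors, and serve for comparing groups. Levels between genes are compared only as the authors' FPKM, which divides by gene length. By mean FPKM over 12 tumours, Bst2 stood highest at 455, followed by Isg15 at 99.3, Irf7 at 95.3 and Ifi47 at 94.7. Rnf125 was lowest at 2.51 FPKM.

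The genes of the list shared a pattern over the groups. Tumours with altitude alone (HC) or IOX2 alone (MI) had the higher means, and tumours with both (HI) or neither (MC) the lower ones. In 30 of the 39 genes (76.9%) the HC and MI means were both above the MC mean and both above the HI mean, an order that 15.1% of all tested genes had. The group with the highest mean was HC for 18 genes, MI for 19, MC for 2 and HI for 0, and the group with the lowest mean was HI for 24, HC for 3, MI for 0 and MC for 12. Among all tested genes the highest mean was in HC for 22.1%, in MI for 31.9%, in MC for 25.5% and in HI for 20.5%. The lowest mean was in HI for 22.6%, in HC for 25.4%, in MI for 27.8% and in MC for 24.2%. This order was noticed in the values, so the counts describe it and do not test it.

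The mean deviation over the 39 genes, on the log2 CPM scale from each gene's mean over 12 tumours, was -0.19, -0.18 and -0.07 in HI, 0.05, 0.11 and 0.14 in HC, 0.30, 0.04 and 0.04 in MI, and 0.02, -0.12 and -0.15 in MC. By this mean all 3 HI tumours lay below all 3 HC and all 3 MI tumours. By the median over genes HI3 stood at -0.05, close to MI3 at -0.04, and 13 genes in HI3 and 14 in MI3 were above their own mean. MC1 stood above the other MC tumours, and MI1 stood above all the rest. MI1 was the highest of 12 libraries in 13 genes and MI3 in 8, while HI1 was the lowest in 15 and MC3 in 11. In a bulk tumour, fewer cells of a type and less RNA per cell cannot be told apart.

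**Figure D1:**
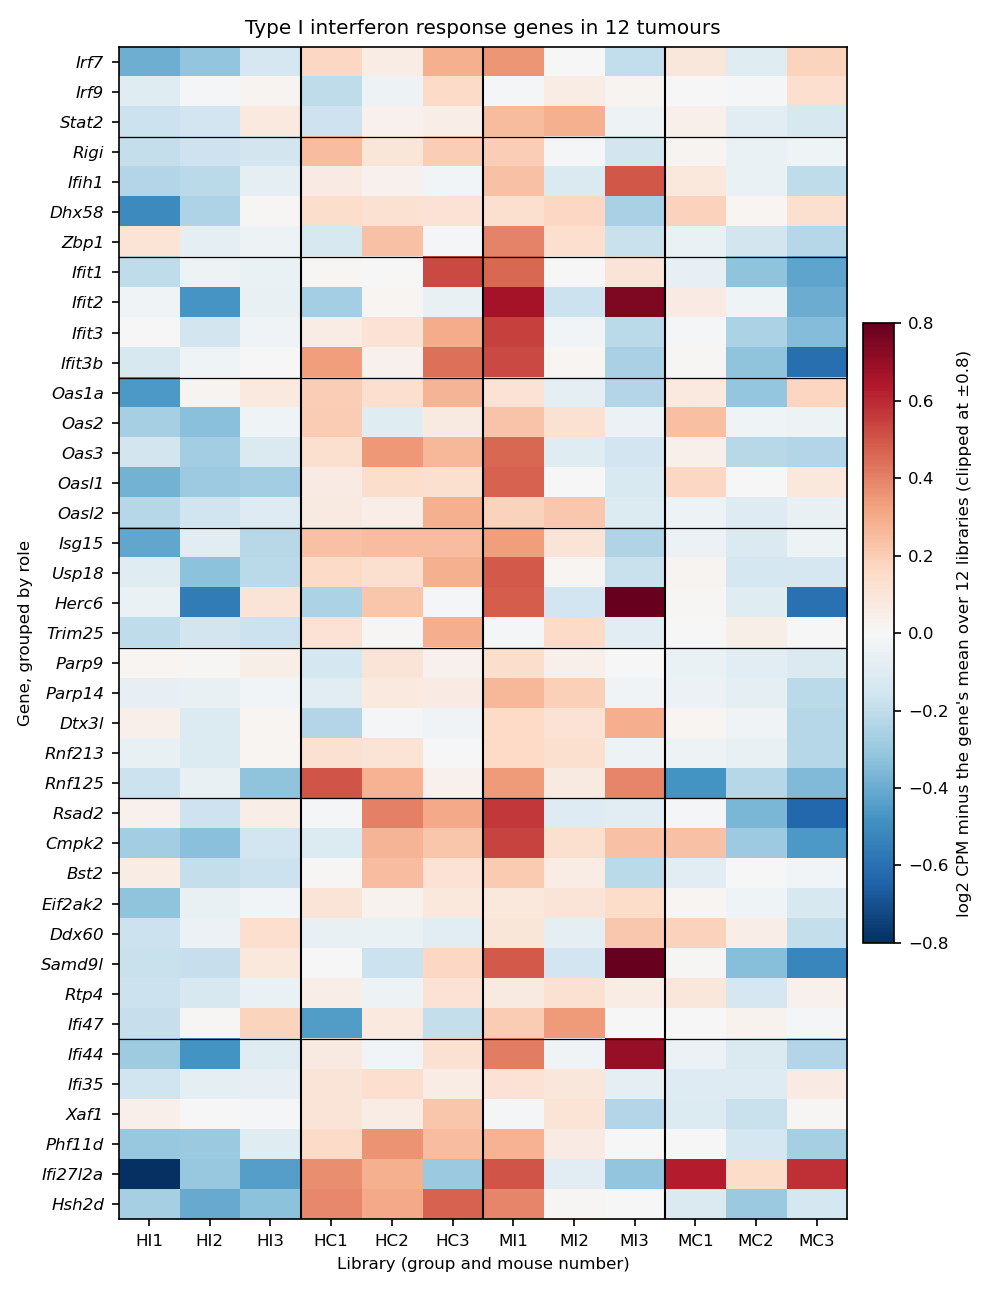
Deviation of each of the 39 genes (rows, grouped by role) in each of the 12 tumours (columns, by group), as log2 CPM minus the gene's mean over 12 libraries, with red above and blue below that mean. The HI columns are mostly blue and the HC columns mostly red, MI1 is red in most rows, and Herc6 and Samd9l stand out in MI3.

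Altitude with vehicle was set out by HC against MC. The IFIT proteins, the OAS proteins, the sensors and the genes of the ISG15 system all had higher means in HC, in 4 of 4, 5 of 5, 4 of 4 and 4 of 4 genes. In the whole list 34 of 39 genes were higher and 5 lower (Irf9, Dtx3l, Ddx60, Ifi47 and Ifi27l2a), while 47.8% of all tested genes were higher. Isg15, the ubiquitin-like modifier that gives its system the name, averaged 87.6 ± 0.372 CPM in HC and 70.7 ± 2.1 CPM in MC (SD, n = 3 each). The median log2 change of the list was 0.18, against -0.01 over all tested genes. In 17 genes every HC tumour stood above every MC tumour and in 0 every HC tumour stood below; over all tested genes the shares were 10.3% and 11.4%. In edgeR's quasi-likelihood test, 0 of the 39 genes and 0% of all tested genes passed a Benjamini-Hochberg adjusted p of 0.05, the lowest adjusted p of the list being 0.203. At an unadjusted p under 0.05, 11 were higher and 0 lower, against 6.14% and 5.84% of all tested genes. DESeq2 called Rnf125, Hsh2d and Phf11d, all higher (adjusted p = 0.00795, 0.00847 and 0.0345), and 2.06% of all tested genes (1.28% higher and 0.779% lower). With the mouse number as a block, the genes called by edgeR among all those tested numbered 13, none of them in the list. The count of 11 was 5 without MC2, without MC3 or without HC3, and 7 without HC1.

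IOX2 at ambient altitude was set out by MI against MC, which shares the MC tumours with the comparison before. Again the IFIT proteins were higher in 4 of 4 genes, and so were the ISG15 system in 4 of 4, the PARP and ubiquitin ligase genes in 5 of 5 and the other antiviral effectors in 8 of 8. In the whole list 35 of 39 genes had higher means in MI, and Irf9, Dhx58, Oas1a and Ifi27l2a had lower ones, while 50.8% of all tested genes were higher and 49.2% lower. Rnf125, a ubiquitin ligase that marks the sensor RIG-I for degradation, averaged 15.7 ± 1.82 CPM in MI and 10.2 ± 0.880 CPM in MC (SD, n = 3 each). The median log2 change was 0.19, against 0.01 over all tested genes. In 9 genes every MI tumour stood above every MC tumour and in 0 below, with shares of 4.75% and 6.32% over all tested genes. By edgeR 0 of the 39 passed (lowest adjusted p = 0.492), while 0.0262% of all tested genes did. At an unadjusted p under 0.05, 13 were higher and 0 lower, against 5.61% and 3.78% of all tested genes, or 9.39% in both directions. DESeq2 called Rnf125 alone (adjusted p = 0.0396), and 0.131% of all tested genes. The count of 13 was 3 without MC3, 6 without MI1, 8 without MC2 and 20 without MI3.

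IOX2 at simulated altitude gave the opposite sign, as HI against HC. It shares the HC tumours with HC against MC, so the signs of these comparisons are not independent. The OAS proteins were lower in 5 of 5 genes, the ISG15 system in 4 of 4, the IFIT proteins in 4 of 4, the sensors in 4 of 4 and the transcription factors in 3 of 3. In the whole list 35 of 39 genes had lower means in HI, and Parp9, Dtx3l, Ddx60 and Ifi47 had higher ones, while 49.6% of all tested genes were lower and 50.4% higher. Isg15 averaged 62.9 ± 7.13 CPM in HI and 87.6 ± 0.372 CPM in HC (SD, n = 3 each). The median log2 change was -0.27, against 0.00 over all tested genes. In 24 genes every HI tumour stood below every HC tumour and in 0 above, with shares of 5.61% and 5.74% over all tested genes. By edgeR 0 of the 39 and 0% of all tested genes passed (lowest adjusted p of the list 0.964). At an unadjusted p under 0.05, 17 were lower and 0 higher, against 2.51% and 2.33% of all tested genes, or 4.85% in both directions. DESeq2 called Hsh2d and Phf11d, both lower (adjusted p = 0.00134 and 0.016), and 0.144% of all tested genes (0.0786% higher and 0.0655% lower). Leaving out 1 tumour at a time gave 12 to 20 genes in place of 17.

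Altitude under IOX2, as HI against MI, shares the HI tumours with the comparison before and the MI tumours with MI against MC. Means in HI were lower in 38 of 39 genes, the exception being Xaf1, which encodes a protein that binds an inhibitor of cell death; of all tested genes 52.2% were lower. All 4 genes of the ISG15 system were lower at an unadjusted p under 0.05, and Ifi44, an induced gene of the cytoplasm, averaged 178 ± 23.3 CPM in HI and 282 ± 69.0 CPM in MI (SD, n = 3 each). The median log2 change was -0.25, against -0.01 over all tested genes. In 11 genes every HI tumour stood below every MI tumour and in 0 above, with shares of 6.61% and 8.02% over all tested genes. By edgeR 0 of the 39 and 0% of all tested genes passed (lowest adjusted p of the list 0.165). At an unadjusted p under 0.05, 22 were lower and 0 higher, against 8.43% and 6.77%. DESeq2 called Ifi44, Hsh2d and Oasl1, all lower (adjusted p = 0.0111, 0.0356 and 0.0429), and 2.50% of all tested genes (0.950% higher and 1.55% lower). The count of 22 was 9 without HI1 and 11 without MI1 or HI2. Without MI2, edgeR called 4 of the 39 (Ifi44, Ifit2, Ifih1 and Samd9l, adjusted p = 0.0154, 0.0287, 0.035 and 0.0427).

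**Figure D2:**
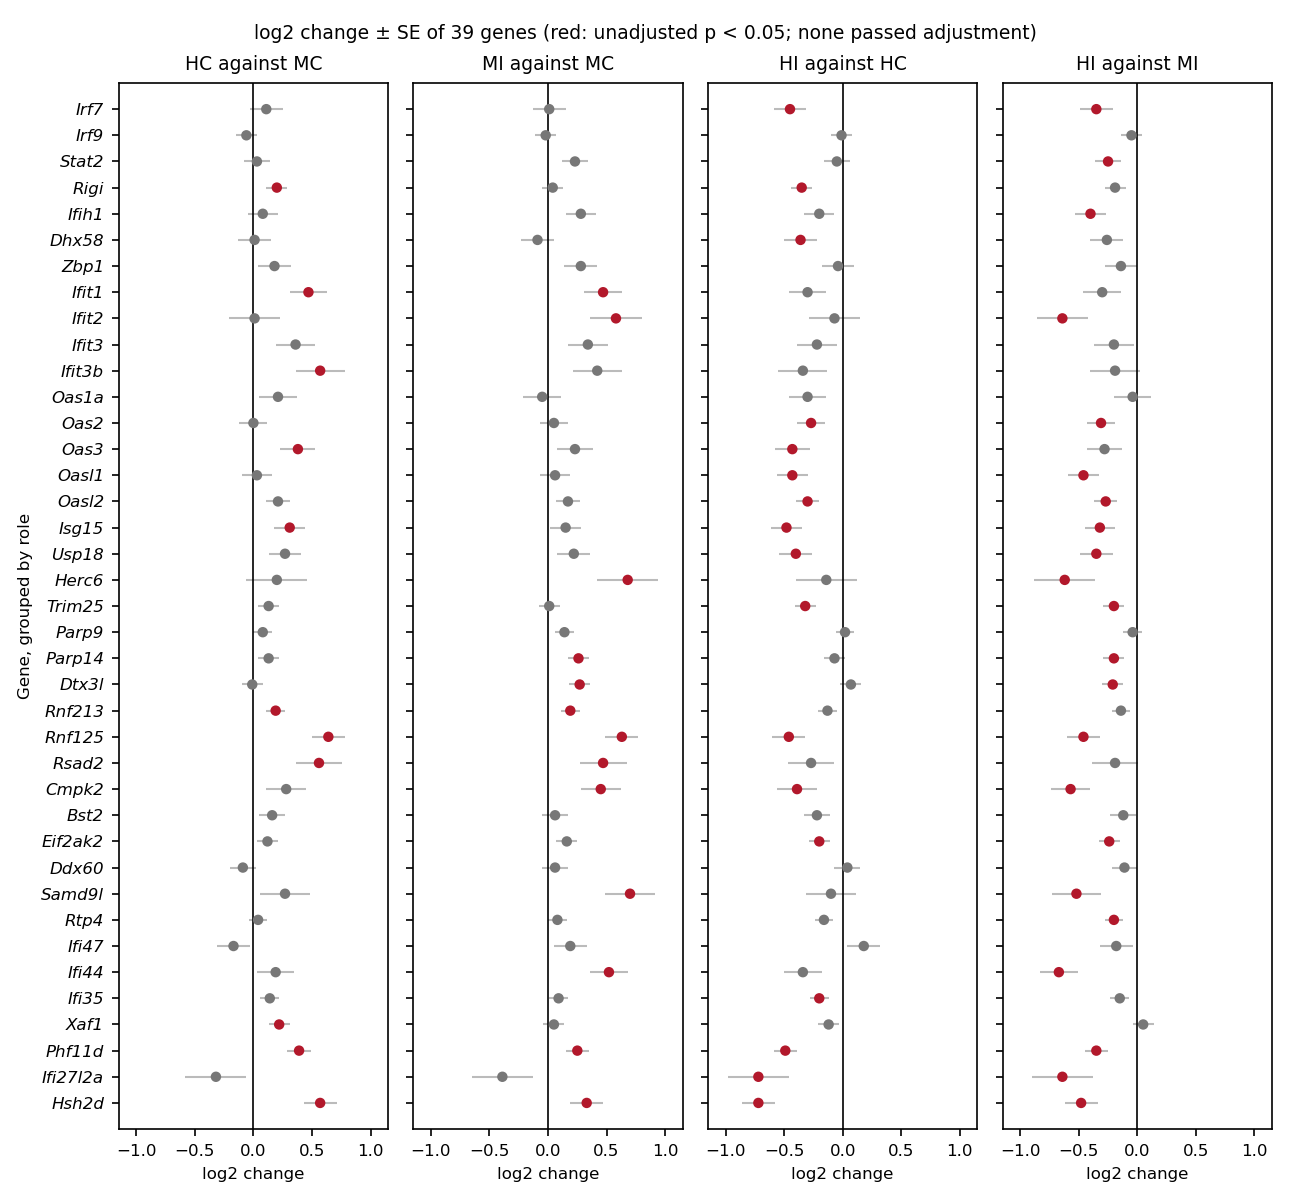
The log2 change with its standard error (x axis) of the 39 genes (rows, grouped by role) in 4 comparisons (panels), with red points at an unadjusted edgeR p under 0.05. Points lie mostly right of 0 for HC against MC and MI against MC and mostly left of 0 for HI against HC and HI against MI, while none of the 39 passed the adjusted edgeR test.

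The interaction asks whether altitude acted differently with IOX2 than with vehicle, as HI minus MI less the difference of HC and MC. It was below 0 for 38 of 39 genes, all but Irf9, against 52.4% of all tested genes (47.6% were above 0), with a median of -0.39 on the log2 scale against -0.02. In edgeR 0 of the 39 and 0% of all tested genes passed (lowest adjusted p of the list 0.596). At an unadjusted p under 0.05, 25 were below 0 and 0 above, against 4.17% and 4.04% of all tested genes, or 8.21% in both directions. DESeq2 called Hsh2d, Rnf125 and Phf11d (adjusted p = 0.000988, 0.00227 and 0.00619), and 0.210% of all tested genes. Leaving out 1 tumour at a time gave 17 to 28 genes in place of 25. Averaged over the other factor, the list's medians lay near 0. Here 15 genes were higher and 24 lower with altitude (median -0.03), against 46.2% and 53.8% of all tested genes, and 19 higher and 20 lower with IOX2 (median -0.01), against 51.7% and 48.3%. By edgeR 0 of the 39 passed in either average, while 0.498% and 0.0393% of all tested genes did, and DESeq2 called 0 in both. At an unadjusted p under 0.05, altitude had 0 higher and 2 lower genes, against 8.64% and 8.65% of all tested genes, and IOX2 had 1 higher and 5 lower, against 2.70% and 2.42%. Leaving out 1 tumour at a time gave 0 to 4 higher and 0 to 5 lower for altitude (0 lower without MI1 or HC3, 5 without MI2), and 0 to 4 higher and 1 to 9 lower for IOX2 (1 lower without MI3, HC3 or HI1, 9 without MI1).

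Among the transcription factors, Irf7, the factor that drives the interferon alpha genes, had 139, 146 and 166 CPM in HI, 204, 189.7 and 222 CPM in HC, 233, 182 and 159 CPM in MI and 193, 169.9 and 206 CPM in MC. Every HI tumour was below every HC and every MC tumour, and MI3 fell in the range of HI. Its log2 change was -0.45 (SE 0.14, edgeR adjusted p = 0.964) for HI against HC and -0.35 (SE 0.14, edgeR adjusted p = 0.283) for HI against MI, the second being -0.20 without MI1.

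Stat2, a subunit of the complex that binds the response element, had 133, 134 and 158 CPM in HI, 133, 153 and 155 CPM in HC, 178, 182 and 145 CPM in MI and 154, 141 and 137 CPM in MC. MI1 and MI2 were the highest tumours and the groups overlapped. The log2 change was -0.25 (SE 0.11, edgeR adjusted p = 0.315) for HI against MI. Irf9, the DNA-binding subunit of the same complex, had 114, 120.2 and 123 CPM in HI, 106, 118 and 135 CPM in HC, 120.1, 127 and 123 CPM in MI and 121, 119.9 and 133 CPM in MC. The groups of Irf9 overlapped in all 4 comparisons, with log2 changes between -0.06 and -0.01.

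Of the sensors, Rigi, which encodes the cytoplasmic RNA sensor RIG-I, had 71.6, 72.7 and 73.7 CPM in HI, 96.7, 87.1 and 93.5 CPM in HC, 93.5, 81.0 and 73.6 CPM in MI and 82.9, 78.8 and 79.6 CPM in MC. The HC tumours were all above the MC tumours, and the HI tumours lay close together below both. On the log2 scale the change was 0.20 (SE 0.09, edgeR adjusted p = 0.397) for HC against MC and -0.35 (SE 0.09, edgeR adjusted p = 0.964) for HI against HC.

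Ifih1, the gene of MDA5, a sensor of long double-stranded RNA, had 60.6, 61.3 and 67.8 CPM in HI, 74.4, 73.0 and 70.2 CPM in HC, 83.7, 65.7 and 101 CPM in MI and 75.6, 68.5 and 61.8 CPM in MC. HI was below HC in every tumour, and MI3 was far above the other MI tumours. Its fitted log2 change was -0.40 (SE 0.13, edgeR adjusted p = 0.248) for HI against MI, and -0.24 without MI3. Zbp1, a sensor of Z-form nucleic acid that can start cell death, had 136, 120.0 and 123 CPM in HI, 116, 149 and 126 CPM in HC, 166, 139 and 112 CPM in MI and 122, 114 and 108 CPM in MC. Its groups overlapped throughout, with MI1 highest. Dhx58, the gene of LGP2, a partner of the other RNA sensors, averaged 38.3 ± 6.86 CPM in HI, 49.1 ± 0.464 CPM in HC, 45.7 ± 7.12 CPM in MI and 48.6 ± 2.84 CPM in MC, and HI was below HC in every tumour.

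The IFIT proteins hold or block RNA that lacks the marks of host messenger RNA. Ifit1 had 36.0, 40.5 and 39.95 CPM in HI, 41.9, 41.4 and 60.0 CPM in HC, 57.2, 41.7 and 44.7 CPM in MI and 39.7, 33.2 and 31.0 CPM in MC. Every HC and every MI tumour was above every HI and every MC tumour. The fitted log2 change was 0.47 (SE 0.16, edgeR adjusted p = 0.308) for HC against MC, 0.47 (SE 0.16, edgeR adjusted p = 0.492) for MI against MC and -0.77 (SE 0.23, edgeR adjusted p = 0.596) for the interaction. Without HC3 the first was 0.27.

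Ifit3 had 35.5, 31.95 and 34.7 CPM in HI, 37, 38.4 and 43.6 CPM in HC, 51.8, 34.8 and 30.6 CPM in MI and 35.1, 29.8 and 27.8 CPM in MC. The HC tumours were above all HI and all MC tumours, and MI ran from the highest of all 12 values, in MI1, down into the MC range. Its copy Ifit3b had a log2 change of 0.57 (SE 0.21, edgeR adjusted p = 0.325) for HC against MC. Ifit2, another member that binds RNA, averaged 56.8 ± 9.30 CPM in HI, 59.7 ± 6.08 CPM in HC, 88.6 ± 27.7 CPM in MI and 59.4 ± 9.53 CPM in MC, and its MI mean rested on MI1 and MI3. The log2 change of Ifit2 for MI against MC was 0.58 (SE 0.22, edgeR adjusted p = 0.492), and 0.42 without MI3 or 0.48 without MI1.

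The OAS proteins make short adenylate chains that switch on an RNA-cutting enzyme, RNase L. Oas1a had 49.3, 69.0 and 71.6 CPM in HI, 77.9, 74.6 and 81.9 CPM in HC, 73.4, 64.5 and 57.7 CPM in MI and 71.7, 54.8 and 76.5 CPM in MC. HC was above HI in every tumour, and the MC values spread over most of the whole range. Oasl2, a relative that carries ubiquitin-like domains, had 177, 186 and 194 CPM in HI, 219, 216 and 253 CPM in HC, 236, 242 and 193 CPM in MI and 202, 194 and 199.9 CPM in MC. Its HC tumours were above all HI and all MC tumours. The log2 change of Oasl2 was -0.30 (SE 0.10, edgeR adjusted p = 0.964) for HI against HC and -0.27 (SE 0.10, edgeR adjusted p = 0.271) for HI against MI.

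Oasl1, which in mice holds back the translation of Irf7, had 26.2, 27.9 and 28.1 CPM in HI, 35.6, 37.7 and 37.3 CPM in HC, 47.4, 34.2 and 31.4 CPM in MI and 38.3, 34.2 and 36.2 CPM in MC. The 3 HI tumours were below all 9 others, and MI1 stood alone at the top. Its log2 change was -0.46 (SE 0.13, edgeR adjusted p = 0.214) for HI against MI, -0.43 (SE 0.13, edgeR adjusted p = 0.964) for HI against HC and -0.22 (SE 0.09, edgeR adjusted p = 0.257) for altitude averaged over treatment. Without MI1 the first was -0.27 and the third -0.12. Oas3, the largest of the OAS proteins, averaged 45.9 ± 2.73 CPM in HI, 61.8 ± 4.74 CPM in HC, 55.6 ± 13.8 CPM in MI and 47.4 ± 5.26 CPM in MC, with a log2 change of 0.38 (SE 0.15, edgeR adjusted p = 0.346) for HC against MC. Oas2 averaged 26.5 ± 2.92 CPM in HI, 31.9 ± 3.34 CPM in HC, 32.9 ± 3.13 CPM in MI and 31.9 ± 3.65 CPM in MC, with HI lowest.

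In the ISG15 system, Isg15 itself had 55.5, 69.7 and 63.5 CPM in HI, 87.2, 87.9 and 87.7 CPM in HC, 93.3, 79.5 and 62.6 CPM in MI and 71.7, 68.3 and 72.1 CPM in MC. The HC tumours were within 1 CPM of each other and above all HI and all MC tumours, while MI spread from the highest value in MI1 to 62.6 CPM in MI3. The log2 change was -0.48 (SE 0.13, edgeR adjusted p = 0.964) for HI against HC and 0.31 (SE 0.13, edgeR adjusted p = 0.37) for HC against MC. The change of -0.32 (SE 0.13) for HI against MI was -0.19 without MI1.

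Usp18, which strips ISG15 from proteins and damps the receptor, had 58.0, 49.4 and 53.3 CPM in HI, 69.0, 67.9 and 75.5 CPM in HC, 87.0, 62.8 and 54.9 CPM in MI and 63.0, 56.2 and 56.6 CPM in MC. HC was again above HI and MC in every tumour. Its fitted log2 change was -0.40 (SE 0.14, edgeR adjusted p = 0.964) for HI against HC and -0.35 (SE 0.14, edgeR adjusted p = 0.301) for HI against MI, the second being -0.15 without MI1.

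Trim25, a ubiquitin ligase that acts on RIG-I, had 134, 139.6 and 137 CPM in HI, 167, 156 and 189 CPM in HC, 153, 172 and 146 CPM in MI and 154, 159.6 and 154 CPM in MC. Its HI tumours were below all 9 others. The fitted log2 change was -0.32 (SE 0.09, edgeR adjusted p = 0.964) for HI against HC and -0.15 (SE 0.06, edgeR adjusted p = 0.759) for IOX2 averaged over altitude. Herc6, the main ligase for ISG15 in mice, averaged 79.3 ± 17.8 CPM in HI, 87.4 ± 14.3 CPM in HC, 122 ± 43.1 CPM in MI and 76.0 ± 15.9 CPM in MC and was highest in MI3. Its log2 change for MI against MC was 0.68 (SE 0.26, edgeR adjusted p = 0.492), and 0.41 without MI3.

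Among the PARP and ubiquitin ligase genes, Parp14, an ADP-ribosyltransferase, had 202, 203 and 208 CPM in HI, 199.8, 223 and 221 CPM in HC, 255, 242 and 207 CPM in MI and 205, 200.3 and 182 CPM in MC. The MI tumours were above all MC tumours, and HI lay within the MC and MI ranges together. On the log2 scale the change was 0.26 (SE 0.09, edgeR adjusted p = 0.492) for MI against MC. Dtx3l, the ubiquitin ligase partner of Parp9, had 164, 148 and 161 CPM in HI, 136, 158 and 156 CPM in HC, 178, 173 and 195 CPM in MI and 161, 156 and 136 CPM in MC. All 3 MI tumours were above the 9 others. The log2 change of Dtx3l was 0.27 (SE 0.09, edgeR adjusted p = 0.492) for MI against MC and 0.17 (SE 0.07, edgeR adjusted p = 0.759) for IOX2 averaged over altitude.

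Rnf125 had 11.5, 12.5 and 10.4 CPM in HI, 18.4, 15.7 and 13.3 CPM in HC, 16.4, 13.6 and 17.1 CPM in MI and 9.29, 11.1 and 10.2 CPM in MC. Every HC and every MI tumour stood above every HI and every MC tumour, at a low level. The log2 change was 0.64 (SE 0.14, unadjusted p = 0.000947, edgeR adjusted p = 0.203) for HC against MC, 0.63 (SE 0.14, unadjusted p = 0.00104, edgeR adjusted p = 0.492) for MI against MC and -1.09 (SE 0.20, unadjusted p = 0.000197, edgeR adjusted p = 0.596) for the interaction. Of the 39 genes it had the lowest p in each of these 3 comparisons. Rnf213, a very large ubiquitin ligase, averaged 348 ± 14.8 CPM in HI, 380.2 ± 17.5 CPM in HC, 382 ± 27.8 CPM in MI and 334 ± 23.3 CPM in MC, and both HC and MI were above MC in every tumour. The lowest MI tumour (349.8 CPM) and the highest MC tumour (349.7 CPM) were nearly level.

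Among the other antiviral effectors, Rsad2, the gene of viperin, which makes a nucleotide that stops RNA synthesis, had 20.1, 17.5 and 20.4 CPM in HI, 19.6, 26.1 and 24.2 CPM in HC, 29.2, 18.3 and 18.6 CPM in MI and 19.6, 15.3 and 12.7 CPM in MC. The lowest HC tumour and the highest MC tumour were level at 19.6 CPM. The fitted log2 change was 0.56 (SE 0.20, edgeR adjusted p = 0.325) for HC against MC and 0.47 (SE 0.20, edgeR adjusted p = 0.492) for MI against MC, the second being 0.23 without MI1. Its neighbour Cmpk2, a nucleotide kinase of mitochondria, averaged 31.9 ± 2.11 CPM in HI, 41.9 ± 5.74 CPM in HC, 47.3 ± 7.17 CPM in MI and 34.5 ± 9.04 CPM in MC, and HI was below HC and MI in every tumour. The log2 change of Cmpk2 for HI against MI was -0.57 (SE 0.17, edgeR adjusted p = 0.229).

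Bst2, which encodes tetherin, a protein that holds virus particles at the membrane, had 381, 321 and 325 CPM in HI, 368, 433 and 396 CPM in HC, 423, 381 and 315 CPM in MI and 345, 365 and 360.2 CPM in MC. HC was above MC in every tumour, and the other groups overlapped. Its log2 change for HC against MC was 0.16 (SE 0.11, edgeR adjusted p = 0.62), and 0.10 without HC2.

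Eif2ak2, the gene of PKR, a kinase that stops protein synthesis on double-stranded RNA, had 101, 121 and 125 CPM in HI, 135, 129 and 134 CPM in HC, 134, 136 and 139.9 CPM in MI and 128, 123 and 116 CPM in MC. The HC and MI tumours were all above the HI and MC tumours, by little. On the log2 scale the change was -0.24 (SE 0.09, edgeR adjusted p = 0.261) for HI against MI and -0.36 (SE 0.12, edgeR adjusted p = 0.596) for the interaction, the first being -0.15 without HI1.

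Samd9l, which restrains protein synthesis, had 98.8, 98.3 and 118 CPM in HI, 112, 99.4 and 126 CPM in HC, 157, 101 and 194 CPM in MI and 113, 88.1 and 77.9 CPM in MC. MI1 and MI3 were the highest tumours and MI2 lay within the other groups. Its fitted log2 change was 0.70 (SE 0.21, edgeR adjusted p = 0.492) for MI against MC, the largest of the 39 in that comparison, and it was 0.48 without MI3. Ifi47, a GTPase better known as a target of interferon gamma, ran against the list, with log2 changes of -0.17 (SE 0.14) for HC against MC and 0.18 (SE 0.14) for HI against HC. They were -0.05 and 0.06 without HC1 and -0.32 and 0.32 without HC2. Ddx60, a helicase linked to RNA sensing, averaged 53.0 ± 5.62 CPM in HI, 51.5 ± 0.602 CPM in HC, 57.1 ± 5.77 CPM in MI and 54.8 ± 7.12 CPM in MC, and its groups overlapped in all 4 comparisons. Rtp4, a chaperone of membrane receptors, averaged 88.7 ± 3.74 CPM in HI, 99.1 ± 5.37 CPM in HC, 102 ± 2.38 CPM in MI and 96.2 ± 7.66 CPM in MC, and HI was below HC and MI in every tumour.

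Of the remaining induced genes, Hsh2d, an SH2-domain adaptor of blood cells, had 5.85, 5.30 and 5.60 CPM in HI, 9.20, 8.70 and 9.79 CPM in HC, 9.26, 7.09 and 7.04 CPM in MI and 6.50, 5.73 and 6.39 CPM in MC. The HC and MI tumours were all above the HI and MC tumours. The log2 change was 0.57 (SE 0.14, unadjusted p = 0.00198, edgeR adjusted p = 0.23) for HC against MC, -0.72 (SE 0.14, unadjusted p = 0.000342, edgeR adjusted p = 0.964) for HI against HC and -1.05 (SE 0.20, unadjusted p = 0.000266, edgeR adjusted p = 0.596) for the interaction.

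Phf11d, a PHD-finger protein, had 44.8, 44.9 and 51.7 CPM in HI, 61.5, 71.1 and 65.5 CPM in HC, 67.0, 57.8 and 55.3 CPM in MI and 55.3, 50.1 and 46.0 CPM in MC. HC was above HI and MC in every tumour, and MI above HI. On the log2 scale the change was 0.39 (SE 0.10, unadjusted p = 0.00315, edgeR adjusted p = 0.242) for HC against MC, -0.49 (SE 0.10, unadjusted p = 0.000618, edgeR adjusted p = 0.964) for HI against HC and -0.35 (SE 0.10, edgeR adjusted p = 0.22) for HI against MI.

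Ifi44 had 177, 155 and 201.1 CPM in HI, 226, 212 and 234 CPM in HC, 286, 211 and 349 CPM in MI and 208, 199 and 183 CPM in MC. All HC and MI tumours were above all HI and MC tumours, and MI3 was highest. Its fitted log2 change was -0.67 (SE 0.16, unadjusted p = 0.00122, edgeR adjusted p = 0.165) for HI against MI and 0.52 (SE 0.16, edgeR adjusted p = 0.492) for MI against MC. Both shrank with a correction for GC content, to -0.39 and 0.20, and the second was 0.34 without MI3.

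Ifi27l2a ran against the list in both comparisons with MC and had the widest range over tumours, 3.24-fold. It had 22.2, 37.7 and 34.3 CPM in HI, 60.1, 56.7 and 37.8 CPM in HC, 65.9, 43.7 and 37.3 CPM in MI and 71.8, 51.5 and 69.8 CPM in MC. The HI tumours were below all HC and all MC tumours, and the MC mean was the highest of the 4. Its log2 change was -0.72 (SE 0.26, edgeR adjusted p = 0.964) for HI against HC, -0.64 (SE 0.26, edgeR adjusted p = 0.29) for HI against MI, -0.39 (SE 0.26, edgeR adjusted p = 0.528) for MI against MC and -0.32 (SE 0.26, edgeR adjusted p = 0.677) for HC against MC. The change for HC against MC was -0.14 without HC3, that for HI against MI -0.38 without MI1, and that for MI against MC -0.65 without MI1 and -0.23 without MI3. It had the lowest p of the list in both averages, with -0.48 (SE 0.18, edgeR adjusted p = 0.209) for altitude and -0.55 (SE 0.18, edgeR adjusted p = 0.759) for IOX2.

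**Figure D3:**
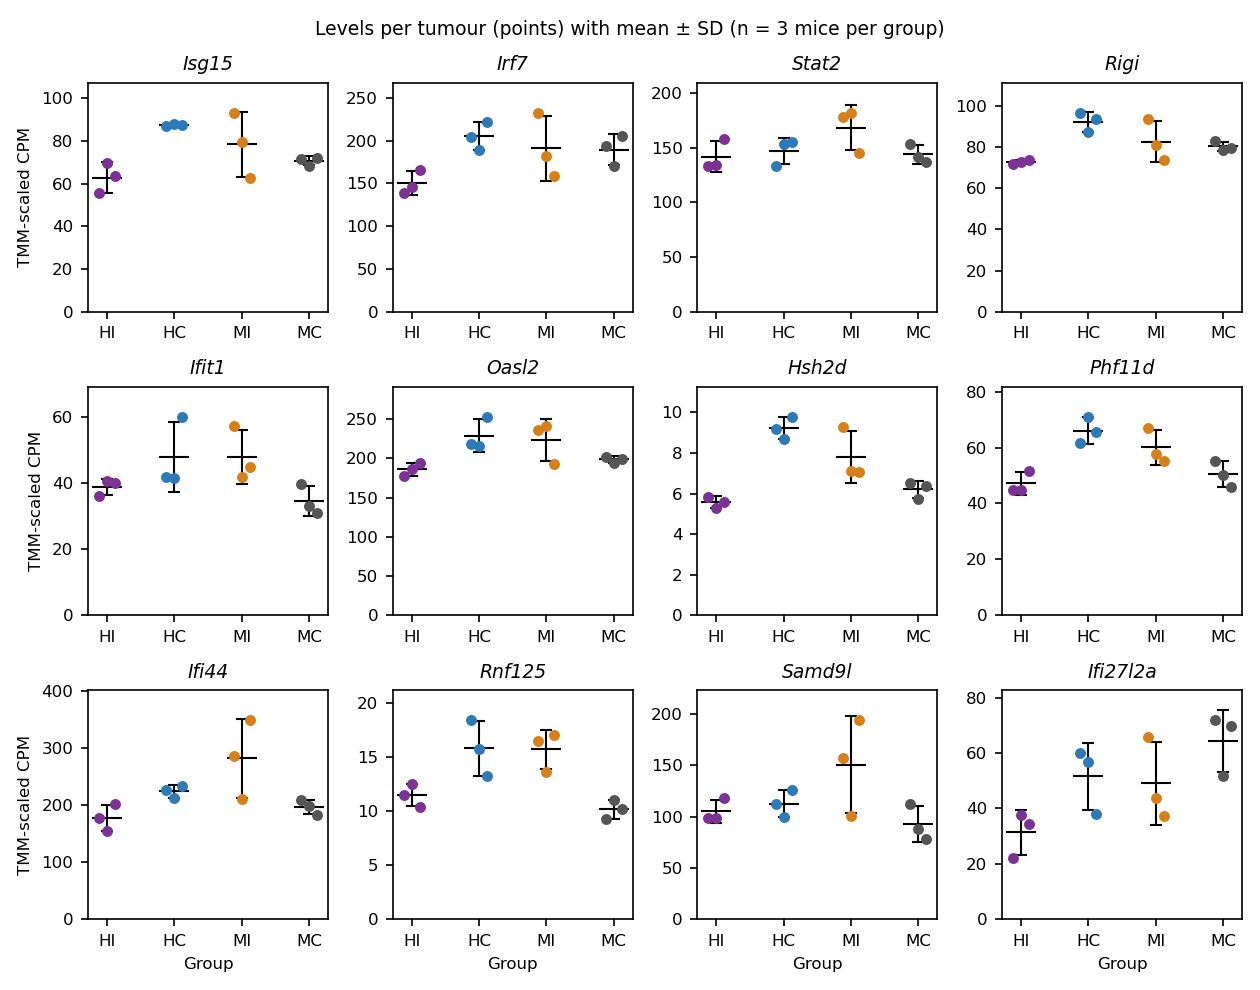
TMM-scaled CPM (y axis, from 0) of 12 of the genes in single tumours (points) by group (x axis), with mean and SD over 3 mice. HC and MI points lie above HI and MC points for Ifit1, Hsh2d, Ifi44 and Rnf125, Isg15 in HC is tight near 87.6 CPM, and Ifi27l2a is highest in MC.

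For genes with and without the response element match described above, the median log2 change was 0.21 in the 13 with a match and 0.19 in the 17 without for HC against MC, and 0.23 and 0.19 for MI against MC. It was -0.27 and -0.20 for HI against HC and -0.20 and -0.35 for HI against MI. These medians describe the promoter's letters beside the values, with no test.

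Some tumours stood apart in markers of other cells. Jchain, Mzb1 and Siglech stood far higher in MI1 than elsewhere. Jchain, a gene of antibody-secreting cells, had 559 CPM there and 0.982 to 17.4 CPM elsewhere. Mzb1, another such gene, had 43.6 CPM there and at most 0.583 CPM elsewhere, and Siglech, of plasmacytoid dendritic cells, had 10.8 CPM there and 0.026 to 1.14 CPM elsewhere. Plasmacytoid dendritic cells are known as strong makers of interferon alpha. The summed level of 9 plasmacytoid markers, dominated by Tcf4 and Runx2 of other cells too, was 244 to 296 CPM in HI, 241 to 291 CPM in HC, 264 to 393 CPM in MI (MI3 highest, MI1 at 321) and 276 to 281 CPM in MC, and Klk1 was the marker at 0 in 3 libraries. Summed markers of B and plasma cells (8 genes found) were 438 to 534 CPM in HI, 375 to 426 CPM in HC, 339 to 344 CPM in MI2 and MI3 with 1040 CPM in MI1, and 349 to 385 CPM in MC. Among these, Ms4a1 was at 0 in 3 libraries and Cd79b in 1. Their part in the list's MI values was not tested. The median of the 39 genes without MI1 was 0.14 for MI against MC and -0.20 for HI against MI.

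Endothelial markers stood lowest in HI, while the macrophage sums of HI overlapped those of every other group. Endothelial markers (8 genes, none at 0) summed to 238 to 267 CPM in HI, 294 to 370.2 CPM in HC, 309 to 429 CPM in MI and 320 to 329 CPM in MC, so that every HI tumour was below the 9 others. For HI against MI 7 of the 8 were lower (median -0.59), 6 at an unadjusted p under 0.05, and the 1 higher gene had such a p too. By edgeR 0 passed the adjusted test there, while DESeq2 called 6, all lower. Of all tested genes 8.43% were lower at an unadjusted p and 1.55% by DESeq2. Macrophage and monocyte markers (12 genes, none at 0) summed to 1390 to 1723 CPM in HI, 1541 to 1965 CPM in HC, 1641 to 1906 CPM in MI and 1709 to 2221 CPM in MC. Fat cell markers (6 genes, none at 0) summed to 39.5 to 240.0 CPM in HI, 61.8 to 458 CPM in HC, 66.4 to 142 CPM in MI and 36.98 to 61.5 CPM in MC. For HC against MC 6 of 6 were higher (median 2.85), 5 at an unadjusted p under 0.05, against 6.14% of all tested genes. By edgeR 0 passed the adjusted test there, and DESeq2 called 3, all higher, against 1.28% of all tested genes. Neutrophil markers (8 genes, none at 0) summed to 174.9 to 210.4 CPM in HI, 72.26 (HC1) to 313.5 CPM in HC, 100.2 to 176.2 CPM in MI and 89.86 to 125 CPM in MC. For HC against MC 6 of 8 were higher (median 1.16), 4 at an unadjusted p under 0.05. By edgeR 0 passed the adjusted test there, and DESeq2 called 3, all higher, beside the same shares of all tested genes. T cell markers (9 genes found, none at 0) summed to 50.8 to 89.9 CPM in HI, 47.4 to 55.6 CPM in HC, 48.2 to 131 CPM in MI and 44.3 to 57.9 CPM in MC. Fibroblast markers (7 genes, none at 0) summed to 7304 to 7865 CPM in HI, 7059 to 12340 CPM in HC, 6916 to 10300.0 CPM in MI and 6200.0 to 9284 CPM in MC. By edgeR 0 of them passed the adjusted test in any comparison, and DESeq2 called 1, lower, for HI against MI. Their means were lower in 7 of 7 for HI against HC and for HI against MI, against 49.6% and 52.2% of all tested genes. They were higher in 7 of 7 for MI against MC and in 5 of 7 for HC against MC, against 50.8% and 47.8%. Their interaction was below 0 in 7 of 7 (median -0.47), against 52.4% of all tested genes. Muscle markers (6 genes, none at 0) summed to 62.1 to 159 CPM in HI, 47.8 to 317 CPM in HC, 34.4 to 462 CPM in MI and 42.9 to 215 CPM in MC. The interaction of the muscle markers was below 0 in 6 of 6, against the same 52.4%, and 0 passed the adjusted test. Markers of conventional dendritic cells (8 genes, none at 0) summed to 60.9 to 91.6 CPM in HI, 60.03 to 89.7 CPM in HC, 89.3 to 98.2 CPM in MI and 85.0 to 114 CPM in MC. With altitude averaged over treatment 8 of 8 were lower (median -1.18), 5 at an unadjusted p under 0.05 and 0 by the adjusted test. Of all tested genes 53.8% were lower there, and 8.65% at an unadjusted p. By mean log2 deviation HI3 stood at 0.33, above MC2 at 0.08, while HI1 and HI2 stood at -0.89 and -0.83. The part of all these markers in the interferon values was not tested.

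Base composition set MI3 apart. Over 14378 genes with a known GC content (94.2% of those tested), the Spearman correlation of a library's deviation with GC content was -0.51 in MI3 and ran from -0.13 to 0.29 in the other 11. Over the 39 genes it was -0.64 in MI3 and 0.64 in MC3, as a description, since the genes share a library. Against the mean of MI1 and MI2, MI3 differed on the log2 scale by 0.71 in Herc6 (GC 39.9%), 0.59 in Samd9l (39%), 0.49 in Ifi44 (40.8%), 0.44 in Ifit2 (43.3%) and 0.43 in Ifih1 (44.1%), and by -0.47 in Isg15 (52.8%). A correction for GC content left the list's median at 0.19 for MI against MC and -0.22 for HI against MI. It took the change of Samd9l for MI against MC to 0.28, of Herc6 to 0.28 and of Ifit2 to 0.40, and that of Herc6 for HI against MI, -0.62 (SE 0.26) before, to -0.25. Without MI3 and with no such correction, Herc6 stood at -0.35 for HI against MI.

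**Figure D4:**
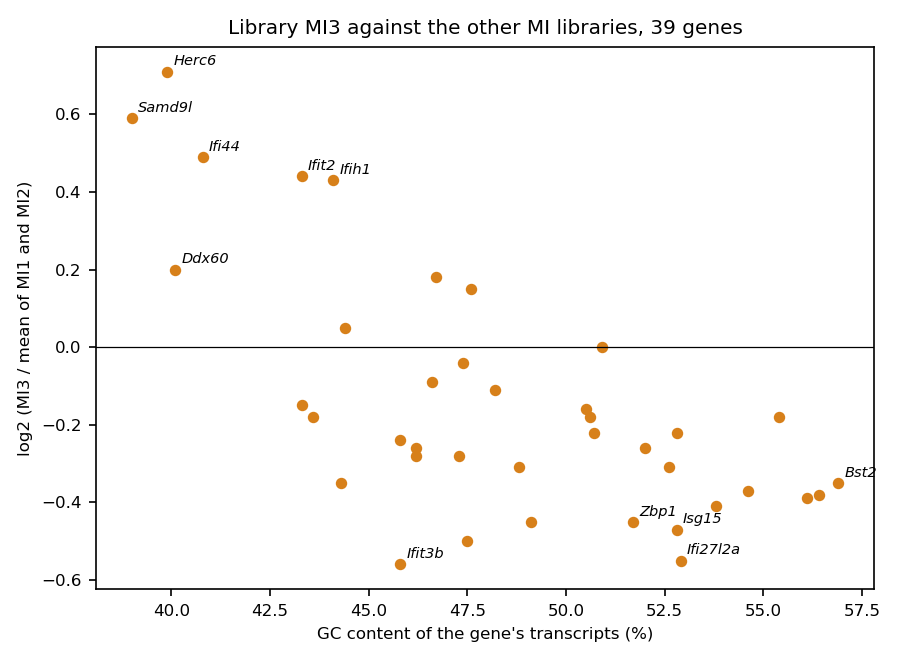
The log2 ratio of MI3 to the mean of MI1 and MI2 (y axis) of the 39 genes against the GC content of their transcripts in percent (x axis). Genes of low GC content, Herc6 and Samd9l first, lie above 0 and most of the others lie below.

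Upstream of these genes, little interferon message was counted. Ifnb1, the gene of interferon beta, had 25 counts in all 12 tumours, with 4, 3 and 4 in HI, 1, 1 and 2 in HC, 1, 0 and 1 in MI and 1, 7 and 0 in MC. Of 13 interferon alpha genes, 12 had 0 counts in every tumour and Ifna4 had 2 counts in all. A count of 0 allows up to 3 counts, or 0.0728 to 0.0917 CPM on the same scale, in 1 library, counting error only. Ifnar1 averaged 95.4 ± 11.3 CPM in HI, 94.1 ± 4.60 CPM in HC, 97.0 ± 4.15 CPM in MI and 104 ± 4.36 CPM in MC, and Ifnar2, the other receptor chain, averaged 55 ± 1.83 CPM in HI, 55.5 ± 3.5 CPM in HC, 61.3 ± 5.12 CPM in MI and 66.5 ± 4.75 CPM in MC. Every HC tumour was below every MC tumour for Ifnar2, with a log2 change of -0.26 (SE 0.09, edgeR adjusted p = 0.296). Its altitude effect averaged over treatment was -0.21 (SE 0.06, edgeR adjusted p = 0.133), which DESeq2 called (adjusted p = 0.0219).

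Of 14 receptor and signalling genes, 0 passed edgeR's adjusted test in any comparison, 0 to 3 had an unadjusted p under 0.05, and DESeq2 called 0 but for Ifnar2. The count was 3 for HI against MI, where 15.2% of all tested genes had such a p, and 3 in the altitude average, where 17.3% had one and DESeq2 called 5.67%. Of 21 tested genes of the induction pathway, which links sensors to interferon genes, 0 passed by edgeR, and 1 to 4 had an unadjusted p under 0.05, the 4 being in the altitude average. Sting1, the adaptor of DNA sensing, and Irf5, a factor that drives interferon and inflammatory genes, had altitude effects averaged over treatment of -0.26 (SE 0.08, edgeR adjusted p = 0.131) and -0.32 (SE 0.09, edgeR adjusted p = 0.133), and DESeq2 called both (adjusted p = 0.0312 and 0.0357).

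A second list of 37 tested interferon-induced genes outside the 39 was mostly lower in HI than in MI. For HI against MI 28 of the 37 were lower (median -0.20), 12 at an unadjusted p under 0.05 and 0 by edgeR's adjusted test, with 5 called by DESeq2. The shares of all tested genes were 52.2% lower, 8.43% at an unadjusted p and 1.55% by DESeq2. Trim30a, a mouse regulator of inflammatory signalling, averaged 90.0 ± 14.8 CPM in HI and 147 ± 35.4 CPM in MI with a log2 change of -0.71 (SE 0.17, edgeR adjusted p = 0.163), and Helz2, a helicase, averaged 73.3 ± 10.5 CPM in HI and 103 ± 15.9 CPM in MI with -0.48 (SE 0.13, edgeR adjusted p = 0.204). For HI against HC 22 of 37 were lower (median -0.11), for MI against MC 25 were higher (0.07) and for HC against MC 21 were higher (0.02), against 49.6%, 50.8% and 47.8% of all tested genes. These medians lay nearer to 0 than those of the 39 genes. By mean log2 deviation the second list stood at -0.22, -0.15 and 0.03 in HI and -0.06, 0.02 and -0.02 in HC. It stood at 0.27, 0.07 and 0.05 in MI and 0.08, -0.02 and -0.06 in MC. HC thus lay within the MC range, and HI overlapped HC. The same list also held Mx1 and Mx2, but neither symbol was among the genes of the count table.

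Most genes that lean to interferon gamma had higher means with IOX2 at both altitudes. Of 23 tested, 21 had higher means in HI than in HC (median log2 change 0.26) and 22 in MI than in MC (median 0.30), while 19 were lower in HI than in MI (median -0.10) and 17 lower in HC than in MC (median -0.08). The shares of all tested genes were 50.4%, 50.8%, 52.2% and 52.2% in that order. By mean log2 deviation over the 23, HC2 at 0.20 stood above every HI tumour (0.16, -0.10 and 0.17). HC1 at -0.51 and HC3 at -0.32 stood below them, so the rise at simulated altitude rested on HC1 and HC3. By edgeR 0 of 23 passed for IOX2 averaged over altitude, where 22 were higher (median 0.32), and 14 at an unadjusted p under 0.05, against 51.7% and 2.70% of all tested genes. DESeq2 called 0. Gbp4 and Gbp6, guanylate-binding proteins of cell defence, and Cxcl9, a chemokine that draws T cells, had averaged IOX2 effects of 0.61 (SE 0.16), 0.45 (SE 0.12) and 0.67 (SE 0.22). Ifng, the gene of interferon gamma, had 2.92, 1.73 and 2.19 CPM in HI, 1.19, 1.44 and 1.32 CPM in HC, 2.42, 2.40 and 1.62 CPM in MI and 1.11, 1.03 and 0.967 CPM in MC. Every HI tumour was above every HC tumour, and every MI tumour above every MC tumour. Its averaged IOX2 effect was 0.92 (SE 0.19, unadjusted p = 0.000449, edgeR adjusted p = 0.759), and DESeq2 called it (adjusted p = 0.00738). Markers of natural killer cells, which make interferon gamma, summed to 74.9 to 87.8 CPM in HI, 35 to 65.3 CPM in HC, 51.8 to 101 CPM in MI and 36.7 to 49.4 CPM in MC, with Klra8 at 0 in 11 libraries. Gzmb dominated these sums, with 19349 counts in the 12 tumours, and Prf1 followed with 5188. By mean log2 deviation over the 7 tested markers HI overlapped HC and MC. The values were -0.23, 0.06 and 0.39 in HI, -0.32, -0.11 and -0.59 in HC, 0.77, 0.32 and 0.08 in MI and 0.13, -0.33 and -0.17 in MC. Averaged over altitude, IOX2 had higher means in 7 of 7 tested natural killer markers (2 at an unadjusted p under 0.05, median 0.52) and in 9 of 9 markers of T cells, which make interferon gamma too (6, median 0.66). By mean log2 deviation the T cell markers stood at 1.37, 0.23 and -0.21 in MI and -0.42, -0.34 and 0 in MC. They stood at -0.36, 0.36 and 0.32 in HI and -0.34, -0.29 and -0.33 in HC. The groups with and without IOX2 thus overlapped at both altitudes, and MI1 stood far above the rest. The part of natural killer and T cells in these values was not tested. Over the same 4 groups the 39 type I response genes had averaged IOX2 medians of -0.01, and the interaction median was 0.02 for the 23 gamma-leaning genes against -0.39 for the 39.

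**Figure D5:**
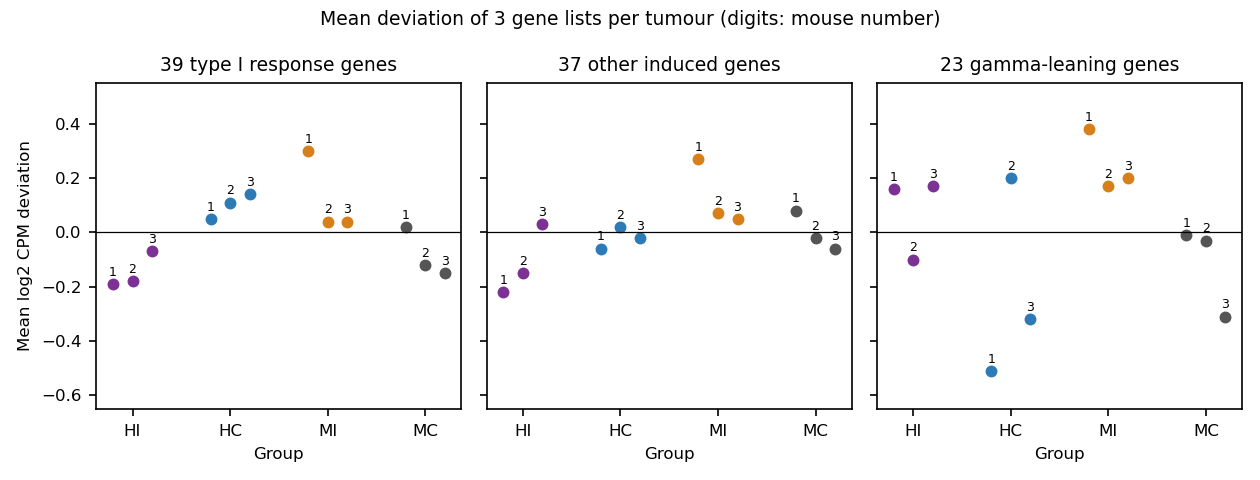
Mean log2 CPM deviation (y axis) of 3 gene lists in each tumour (points, with the mouse number) by group (x axis). The 39 type I response genes lie below 0 in all 3 HI tumours and highest in MI1, and the 23 gamma-leaning genes lie higher in every MI tumour than in every MC tumour, while HC runs from -0.51 in HC1 to 0.20 in HC2.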

How the data were processed

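The submitters' processing notes name GRCm39 as the build and list R 3.5.1, HTSeq 0.11.2, fastp 0.20.1, DESeq2 1.22.2 and HISAT2 2.1.0 without a role for each. The sources used here do not name the annotation or say whether counting used strand. The deposited counts are raw whole numbers per gene, and the deposited FPKM values imply a whole gene length within 0.01 base for 100% of values above 0. The test was edgeR 4.0.16 under R 4.3.3 (filterByExpr, TMM factors, quasi-likelihood fit of all 12 libraries, 1 mean per group, Benjamini-Hochberg adjustment over 15269 genes, threshold 0.05), after tests on simulated data. The exact test of 3 mice against 3 cannot go below p = 0.1. Alternatives were DESeq2 1.42.0, DESeq2 size factors, other filters, limma 3.58.1 (voom, and log2 FPKM + 1 or + 0.1), the compared libraries alone, a block by mouse number and each library left out. A GC correction was added after seeing the data. Same-numbered HC and MC tumours deviated together (correlations 0.278, 0.153 and 0.209), though no label says what a number shares. The main test did not pair them, and the mouse number entered only in the alternative with a block, fitted to all 12 libraries. The other comparisons had at least 1 pair under 0.1. Values per tumour are given for 18 genes picked by role and the 3 with the smallest p in each comparison; the other genes are summarised or named with group means, and some were picked after their values were seen. The members and all lists were chosen with earlier results of these data known. Summed markers are added CPM. Replicate libraries differed by more than sampling noise (chi-square per gene 13.9 to 154). Values of some genes of the lists are not reported here.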

Additional observations from a re-analysis of the deposited data

Results flagged for a closer look

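In 6 of the 39 genes (15.4%) the tumours of 1 comparison all moved one way and those of its counterpart all the other way, as in 187 of 15269 tested genes. For Ifit1, Rnf125, Eif2ak2, Ifi44 and Hsh2d this held for altitude with IOX2 against altitude with vehicle and for IOX2 at simulated against ambient altitude; for Phf11d it held for altitude. The log2 interaction was -1.09 in Rnf125, -1.05 in Hsh2d, -0.86 in Ifi44, -0.77 in Ifit1, -0.73 in Phf11d and -0.36 in Eif2ak2. The edgeR adjusted p of each interaction was 0.596, so the difference did not pass the test over all genes. DESeq2 called Rnf125, Hsh2d and Phf11d among the 6.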

How the results depend on the processing

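All 99 single-gene results kept their direction in 2247 settings, and 23 settings moved a result past the threshold. Genes called by edgeR among all tested numbered 0, 0, 4, 0, 0, 76 and 6 for HC against MC, HI against MI, MI against MC, HI against HC, the interaction, the altitude average and the IOX2 average. DESeq2 called 314, 381, 20, 22, 32, 866 and 11 in that order, and 3, 3, 1, 2 and 3 of the 39 genes in the first 5. For HC against MC, no filter gave 2, the compared libraries alone 63, the replicate block 13 and the block with GC correction 28; the block called 0 of the 39 genes and left their median at 0.18. For HI against MI, DESeq2 size factors gave 1, no filter 16, the filter of 1 CPM in 3 libraries 2 and GC correction 5. For MI against MC, voom gave 0 and the compared libraries alone 2. For HI against HC, the block gave 3 with or without GC correction. For the altitude average, no filter gave 166, voom 20, limma on log2(FPKM + 1) 14, the block 155, GC correction 116 and both 297. In the other comparisons the replicate block left the number of genes called the same or close to it. Whether the same genes were called there was not compared. Leaving out 1 library gave 0 to 40, 0 to 520, 0 to 6, 0 to 0, 0 to 2, 2 to 339 and 4 to 6 genes, and 0 to 4 of the 39 genes for HI against MI (0 in the others). Of these, HC against MC reached 40 without HI1 and HI against MI 520 without MI2. The list's medians then ran from 0.14 to 0.21, -0.35 to -0.20, 0.14 to 0.27, -0.31 to -0.21, -0.48 to -0.32, -0.06 to -0.01 and -0.03 to 0.02. In the FPKM fit 7, 12, 9 and 14 of the 39 were at an unadjusted p under 0.05 in the 4 comparisons of groups, in the order given. The causes were not tested.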
